A study of Mus musculus with 35 samples.

Results

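The comparison described here asks what changes in the RNA of mouse long-term haematopoietic stem cells (LT-HSCs) when 1 of the 2 copies of Ezh2 is lost in cells that already carry the JAK2-V617F mutation. It uses 14 of the 35 libraries of the series, chosen by their labelled genotype alone. The 8 libraries of the heterozygous group are labelled SclCre, JAK2V617F and Ezh2 +/-. The 6 libraries of the intact group are titled SclCre and JAK2V617F with no Ezh2 allele named, and are taken as Ezh2 +/+. Both groups therefore carry the mutant kinase and the Cre recombinase, which is driven by Scl regulatory sequences and so acts in blood stem and progenitor cells. The other libraries are SclCre cells with the remaining combinations of the same alleles, and 6 of them, JAK2V617F with Ezh2 -/-, are set beside the comparison below. Each library was made from 1000 sorted LT-HSCs. The labels used here do not say how or when Cre was switched on, how old the mice were, or whether each library came from its own animal, and the spread behind each p-value may be technical.

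Ezh2 is the main methyltransferase of Polycomb repressive complex 2 (PRC2), which places the repressive methyl mark on lysine 27 of histone H3 and keeps developmental and lineage genes silent. Eed and Suz12 are its core partners, and Ezh1 is a related methyltransferase that can take the place of Ezh2 in the complex. JAK2-V617F is the constitutively active kinase found in most myeloproliferative neoplasms, where it signals through STAT5 without cytokine, and loss of EZH2 is a recurrent second lesion in these diseases, above all in myelofibrosis.

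The 14 libraries held between 20.2 M and 42.3 M counts (M for 1e+06; median 31.7 M) over between 13969 and 15162 genes with at least 1 count, and no library stood apart (median correlation of each with the other 13, 0.954 to 0.975 over log2 values of the genes tested). Of the markers of the labelled cell type, all 8 stem cell markers, Kit, Ly6a, Slamf1, Procr, Mecom, Hlf and Fgd5 among them, were detected in all 14 libraries, with a summed level of 2252 to 3633 CPM (counts scaled to the same library total of 1e+06) in the intact group and 2489 to 3974 CPM in the heterozygous group. Markers of multipotent progenitors were present too, at 339 to 616 CPM in sum in the intact and 313 to 517 CPM in the heterozygous group: Cd34 ran from 299 to 523 CPM against 270.2 to 468 CPM, and Flt3 from 22.3 to 91.7 CPM against 23.8 to 58.8 CPM. B-cell markers were nearly absent, at no more than 4.16 CPM in sum, with Pax5 at 0 throughout. Neutrophil and monocyte markers were present and uneven, from 1292 to 12108 CPM in sum in the intact group and from 702 to 9145 CPM in the heterozygous group. All 6 intact libraries pair sex with batch: the 2 of batch 1 were female and the 4 of batch 2 male. The heterozygous group had both sexes in both batches, so within the intact group sex and batch cannot be told apart. Fits of batch 1 alone and of females alone below therefore rest on the same 2 intact libraries. Those of batch 2 alone and of males alone rest on the same 4, so they are not separate checks.

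The deposited tables count 1 stretch of Ezh2 separately in addition to the whole gene, and it is the direct check on the genotype. Its given length of 178 bases equals that of exons 16 (96 bases) and 17 (82 bases) of the 20-exon transcript Ezh2-201, on chromosome 6. Both lie wholly in the coding sequence. The match rests on length and on the name, which gives exon numbers 4 and 5. These fit if counted from the 3′ end of Ezh2-201, an end that the name does not state. The sequence is shown because every statement on the deleted part rests on it, with exon 16 in lower case and exon 17 in capitals, 5′ to 3′, from the GENCODE transcripts of build GRCm38.

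Ezh2 exons 16 and 17: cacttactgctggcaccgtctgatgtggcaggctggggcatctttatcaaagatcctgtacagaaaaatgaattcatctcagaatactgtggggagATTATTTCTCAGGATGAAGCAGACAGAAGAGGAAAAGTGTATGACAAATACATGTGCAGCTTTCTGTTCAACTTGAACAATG

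Ezh2 RNA was lower in the heterozygous group, at 64.0% of the intact level. Over the whole gene the intact libraries ran from 52.1 to 101 CPM (median 73.5) and the heterozygous libraries from 32.02 to 74.3 CPM (median 48.3). The 6 lowest heterozygous libraries lay below every intact one, and the other two, replicate 1 of batch 1 and replicate 4 of batch 2, lay within the intact range. The means were 75.4 ± 21.4 CPM (SD, n = 6) and 48.2 ± 13.9 CPM (SD, n = 8), a difference with p = 0.0153 in an exact two-sided permutation test over the 3003 arrangements of the libraries (0.0230 after Benjamini-Hochberg adjustment over the 3 Ezh2 measures tested). In the fit over all genes the log2 change was -0.65 ± 0.19 (SE), with an edgeR unadjusted p of 0.00140 and an adjusted p of 1.

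Counts in exons 16 and 17 fell further in proportion. Their level was 3.96 to 9.38 CPM (median 5.14) in the intact group and 1.85 to 6.22 CPM (median 2.99) in the heterozygous group, and it was 0 in all 6 Ezh2-null libraries. All heterozygous libraries but replicate 1 of batch 1 lay below every intact library. The mean fell to 55.9% of the intact mean (exact two-sided permutation p = 0.0123, 0.0230 adjusted over the 3 measures). As a share of all Ezh2 counts, the exon 16 and 17 counts made up 7.62 ± 0.97 per 100 (SD, n = 6) in the intact group and 6.69 ± 1.57 per 100 (SD, n = 8) in the heterozygous group, which did not differ beyond the spread between libraries (exact permutation p = 0.229). By this share only 3 of the 8 heterozygous libraries lay below every intact one. The batches differed in how clearly they showed the loss. In batch 2 the exon level was 5.33 CPM in 4 intact and 2.58 CPM in 5 heterozygous libraries with no overlap (exact permutation p = 0.00794, the smallest that these numbers allow), while in batch 1 it was 6.71 CPM in 2 and 4.33 CPM in 3 libraries (exact permutation p = 0.5, where 0.1 is the smallest possible). Ezh2-null libraries still held 26.9 ± 7.66 CPM (SD, n = 6) of whole-gene Ezh2 RNA without these exons.

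**Figure D1:**
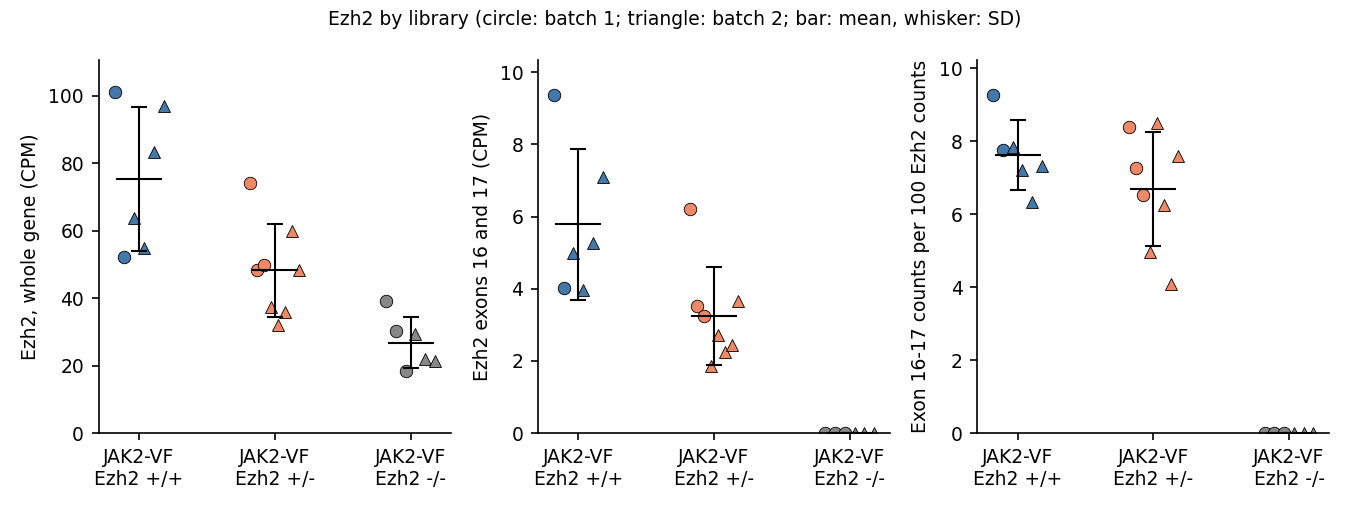
Ezh2 in each JAK2-V617F library by Ezh2 genotype. The panels plot the whole gene (CPM), exons 16 and 17 (CPM) and the exon counts per 100 Ezh2 counts, with circles for batch 1, triangles for batch 2, bars at the mean and whiskers of 1 SD. Whole-gene levels average 75.4, 48.2 and 26.9 CPM from left to right, and the exons are at 0 in all 6 null libraries.

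The rest of PRC2 moved little. Ezh1 ran from 54.0 to 101 CPM in the intact group and from 60.2 to 121 CPM in the heterozygous group, a log2 change of 0.21 with a 95% interval from -0.08 to 0.51. Eed (0.21, interval -0.12 to 0.54) and Suz12 (0.01, interval -0.29 to 0.32) likewise had intervals that spanned 0 and stayed within a 2-fold change. Aebp2, an accessory subunit that helps PRC2 bind chromatin, was the member with the smallest p after Ezh2: it ran from 20.2 to 66.0 CPM against 38.6 to 100 CPM, with a log2 difference of 0.45 ± 0.15 (SE) and an edgeR adjusted p of 1. Of the 11 PRC2 subunits tested none was called, and their median log2 change was -0.02. Jak2 itself was level between the groups, at a median of 60.6 CPM in the intact and 61.4 CPM in the heterozygous libraries (log2 difference 0.07, interval -0.21 to 0.34).

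Across the transcriptome no gene passed the threshold. Of 14945 genes tested, edgeR's quasi-likelihood test called 0 (0% in either direction) at a Benjamini-Hochberg adjusted p under 0.05, and the smallest adjusted p was 0.833. At an unadjusted p under 0.05 there were 578 genes (3.87%), 318 (2.13%) higher and 260 (1.74%) lower in the heterozygous group. limma-voom also called 0 genes, and DESeq2 called 44 of the 14769 genes to which it gave an adjusted p (0.298%; 28, or 0.19%, higher and 16, or 0.108%, lower). Of those 44, 38 had a mean level under 1 CPM and 1, Nabp1, a mean of 10 CPM or more. Log2 changes were balanced, with 51.3% of genes positive and a median of 0.01. The intervals show what the comparison could resolve: for 9087 of the 9650 genes with a mean of at least 10 CPM (94.2%) the 95% interval lay wholly within a 2-fold change, against 20.8% of genes from 1 to 10 CPM and 0.443% of genes under 1 CPM.

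The genes with the smallest p in each direction, among those of moderate or high level, are given here as values, since none was called. Nabp1, a single-stranded DNA-binding protein of the DNA damage response, ran from 8.05 to 14.8 CPM (median 10.8) in the intact group and from 11.9 to 24.3 CPM (median 18.6) in the heterozygous group. All but 1 of the 8 heterozygous libraries lay above every intact library, the log2 difference was 0.90 ± 0.23 (SE), and it was of like size in batch 1 (1.01) and batch 2 (0.93); its adjusted p was 1 with edgeR and 0.0216 with DESeq2. Cish, a feedback inhibitor of cytokine signalling that STAT5 induces, had a median of 307 CPM (132 to 399) against 429 CPM (176 to 648), a log2 difference of 0.67 ± 0.21 (SE), with 4 heterozygous libraries above the intact range. Ltb, the lymphotoxin beta subunit, had medians of 52.8 and 71.3 CPM and differed more between batches than between genotypes, the batch 1 libraries being low in both groups. Lgals1, which encodes galectin-1, a sugar-binding protein linked to fibrosis, ran from 13.1 to 26.6 CPM against 17.04 to 35.6 CPM (log2 difference 0.54 ± 0.18, SE), with 5 heterozygous libraries above the intact range. Oxr1 (oxidation resistance; 0.33), Hs2st1 (heparan sulphate sulphotransferase; 1.03), Mageh1 (0.94) and Mosmo (0.60) completed the 8 on the higher side.

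On the lower side, 6 of the 14945 genes (0.0401%) had every heterozygous library below every intact one, and 0 had the reverse. Mob3c, a MOB-family kinase adaptor, ran from 38.2 to 48.3 CPM in the intact group and from 17.7 to 37.5 CPM in the heterozygous group, a log2 difference of -0.60 ± 0.16 (SE). Fam98a, a component of a tRNA ligase complex, ran from 51.0 to 75.1 CPM against 29.3 to 48.6 CPM (-0.69 ± 0.20, SE). Utp15, a subunit of the small-subunit processome that makes 18S ribosomal RNA, ran from 73.6 to 92.2 CPM against 44.6 to 70.2 CPM (-0.49 ± 0.16, SE). The groups of these genes were separate without overlap, and each had an edgeR adjusted p of 1. For any 1 gene, 1 of the 3003 arrangements of the libraries separates the groups in this way. Among 14945 genes a few such separations arise without any effect, so the separation is no evidence of one. The remaining separated genes were Shmt1, at 74.0 and 60.3 CPM, and the low genes Olfr417 and Fads6, both with means under 1 CPM; they are named because their values separate. Besides Mob3c, Fam98a and Ezh2, the 8 smallest p on the lower side belonged to Pigg (-0.84), Coq5 (coenzyme Q synthesis; -0.47), Ino80e (INO80 chromatin remodeller; -0.38), Mtrex (nuclear RNA helicase; -0.49) and Skap2 (-0.37). Dmwd, the gene with the smallest p of all, was chosen after its values were seen: it ran from 1.64 to 6.29 CPM against 4.25 to 25.7 CPM, with a DESeq2 adjusted p of 0.000795 and an edgeR adjusted p of 0.833.

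**Figure D2:**
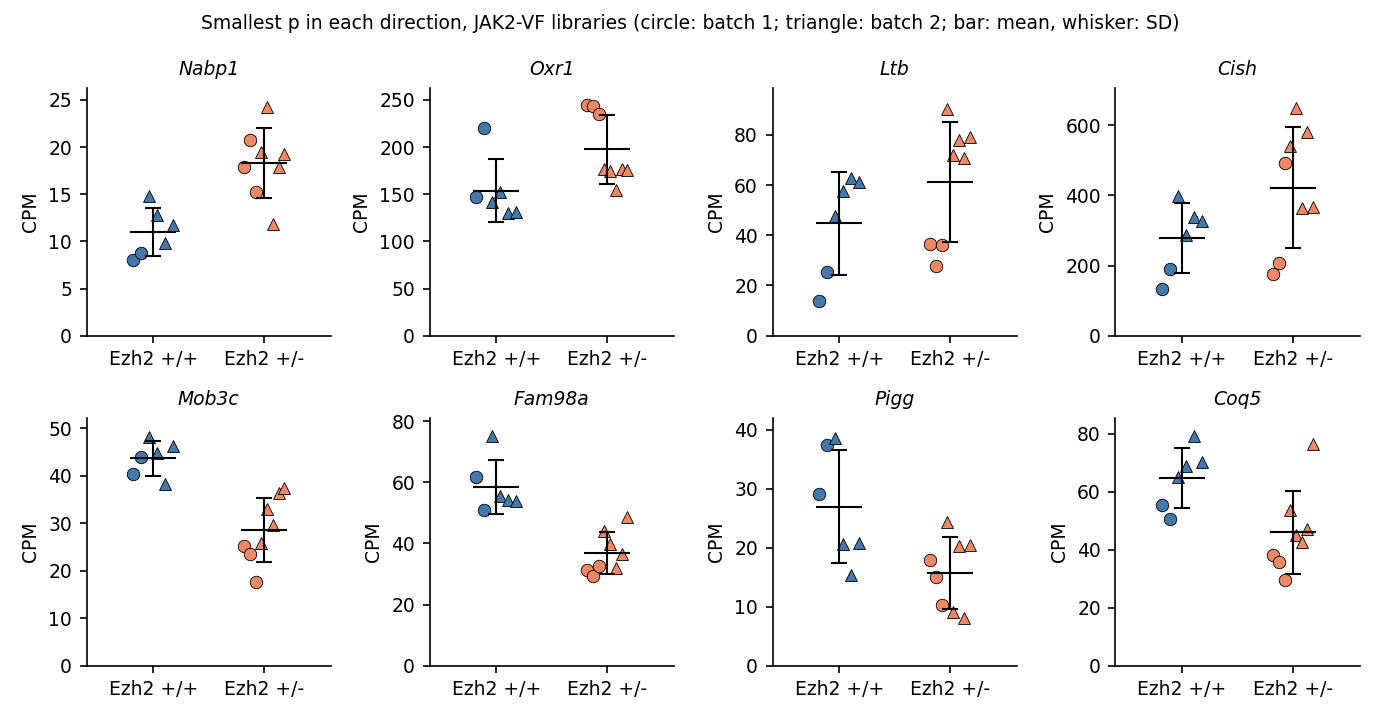
Levels in CPM of 4 genes from each end of the comparison in the 6 intact (Ezh2 +/+) and 8 heterozygous (Ezh2 +/-) JAK2-V617F libraries; circles are batch 1, triangles batch 2, bars the mean and whiskers 1 SD. Mob3c and Fam98a do not overlap between the groups, and Ltb is low in batch 1 of both groups. Cish is low in batch 1 except in replicate 3 of the heterozygous group, at 492 CPM.

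Stem cell genes leaned to the higher side without any call. Of 49 genes of an LT-HSC signature, 38 had a positive log2 change against 51.3% of all genes, and 0 were called. At an unadjusted p under 0.05, 10 were higher and 1 lower (2.13% and 1.74% of all genes). The median change was 0.12 against 0.01 over all genes. The median kept its sign in each of the alternative fits, at 0.25 in females alone and 0.03 in males alone. Alcam, an adhesion molecule, ran from 18.6 to 30.1 CPM in the intact and from 27.9 to 48.4 CPM in the heterozygous group (log2 difference 0.53 ± 0.19, SE), with 7 of 8 heterozygous libraries above the intact range. Mllt3, a regulator of stem cell maintenance, had medians of 167 and 205 CPM (0.34 ± 0.13, SE). Of the 8 sorting and identity markers, 7 were positive, with a median of 0.19. Ly6a, which encodes Sca-1, had medians of 147 and 191 CPM. Procr, the endothelial protein C receptor, had medians of 79.3 and 105 CPM. In bulk libraries a change in the share of cells with a program and a change of RNA per cell cannot be told apart.

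Targets of JAK-STAT signalling were spread around a small positive median. Of the 20 tested, 16 were positive (51.3% of all genes), 1 had an unadjusted p under 0.05 (3.87% of all genes) and 0 were called. The median log2 change was 0.15 (0.29 in batch 1, 0.10 in batch 2, 0.29 in females and -0.04 in males). Besides Cish, Socs2, another feedback inhibitor induced by STAT5, ran from 99.9 to 171 CPM against 121 to 216 CPM, with a log2 difference of 0.36 and an interval from -0.02 to 0.74.

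Interferon-stimulated genes leaned higher. Of 57 tested, 47 were positive, against 51.3% of all genes, and 0 were called. At an unadjusted p under 0.05, 5 were higher and 0 lower (2.13% and 1.74% of all genes). The median was 0.13, and between 0.09 and 0.24 in the alternative fits. Gbp3, a guanylate-binding protein of cell-autonomous defence, ran from 72.3 to 116 CPM against 101 to 157 CPM (log2 difference 0.39 ± 0.14, SE). Gbp8 ran from 5.90 to 18.6 CPM against 10.9 to 31.99 CPM (0.80 ± 0.28, SE). Ifitm1, a membrane protein that restricts viral entry, ran from 669 to 1205 CPM against 890.1 to 1690.5 CPM (0.44 ± 0.16, SE). The groups overlapped in each of these genes. All 7 class II and 8 of 9 class I antigen presentation genes were positive, with medians of 0.14 and 0.07, and the class II median was 0.87 in batch 1 and 0.02 in batch 2.

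Cell cycle genes leaned lower, by an amount that differed with batch or sex and hung on a few intact libraries. Of 42 mitosis genes 4 were positive, with a median of -0.30, and of 42 DNA replication genes 2 were positive, with a median of -0.20. Over all genes 51.3% were positive. In either list 0 were called. At an unadjusted p under 0.05 there were 0 mitosis genes and 2 replication genes, both lower (1.74% of all genes were lower). The mitosis median was -0.61 in batch 1 and -0.04 in batch 2. It was 0.10 among males alone, and -0.09 without replicates 3 and 4 of batch 2 of the intact group, where 13 genes were positive. E2f8, a transcription factor of the S and G2 phases, ran from 18.4 to 63.7 CPM against 7.87 to 35.5 CPM (log2 difference -0.96 ± 0.43, SE). Cdk1, the mitotic kinase, had medians of 101 and 82.9 CPM, and Bub1b, of the spindle checkpoint, medians of 73.0 and 55.1 CPM. Ccne2 (cyclin E2) and Mcm4 (replicative helicase) had log2 differences of -0.49 and -0.30. Cdkn1c, the p57 inhibitor of cyclin-dependent kinases that marks quiescent stem cells, ran from 6.55 to 13.4 CPM against 8.85 to 18.3 CPM (0.57 ± 0.23, SE), and its difference was 1.30 in batch 1 and 0.16 in batch 2.

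Ribosome biogenesis genes leaned lower. Only 1 of 29 was positive, against 51.3% of all genes. At an unadjusted p under 0.05, 5 were lower (1.74% of all genes). In this list edgeR called 0, and the median was -0.15. The mean log2(CPM + 1) of the list ran from 7.14 to 7.24 in the intact group and from 6.99 to 7.16 in the heterozygous group, and 7 of 8 heterozygous libraries lay below every intact one. The median was -0.20 in batch 1, -0.13 in batch 2, -0.23 in females, -0.06 in males and -0.16 without the same pair of intact libraries. After Utp15, Utp4, of the same processome, had medians of 109 and 79.1 CPM, and Nop56, of the box C/D small nucleolar ribonucleoproteins, medians of 351 and 298 CPM (log2 difference -0.21 ± 0.09, SE).

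Red-cell genes leaned lower, and 2 intact libraries stood high in several of them. Of 36 tested, 10 were positive (51.3% of all genes) and 9 lower at an unadjusted p under 0.05 (1.74% of all genes), with a median of -0.31. In this list edgeR called 0 and DESeq2 called 3. Hba-a1, an alpha-globin gene whose counts are identical to those of its copy Hba-a2, stood at 32.4 and 11.1 CPM in replicates 3 and 4 of batch 2 of the intact group and at no more than 0.207 CPM in the other 12 libraries. Slc4a1, the red-cell anion exchanger, stood at 4.75 and 0.948 CPM in the same pair and at no more than 0.0413 CPM elsewhere. Without that pair the list median was 0.00, 18 of 36 genes were positive and 0 had an unadjusted p under 0.05 in either direction. In batch 1 alone the median was -0.29, and in females alone -0.20. These 2 fits share the same 2 intact libraries, neither of them of the pair. The median was -0.25 in batch 2 alone and -0.13 in males alone, which share the other intact libraries. Klf1, the erythroid master regulator, chosen after its values were seen, ran from 4.23 to 19.05 CPM against 0.875 to 7.11 CPM, and its log2 difference was -1.31 with and -1.12 without the pair. What set the pair apart was not tested. Gata1, which drives red-cell and megakaryocyte fates, had medians of 62.4 and 55.7 CPM (log2 difference -0.42, interval -1.16 to 0.32). Of 25 megakaryocyte and platelet genes, 7 were positive, with a median of -0.18 that was -0.44 in batch 1 and 0.08 among males alone.

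**Figure D3:**
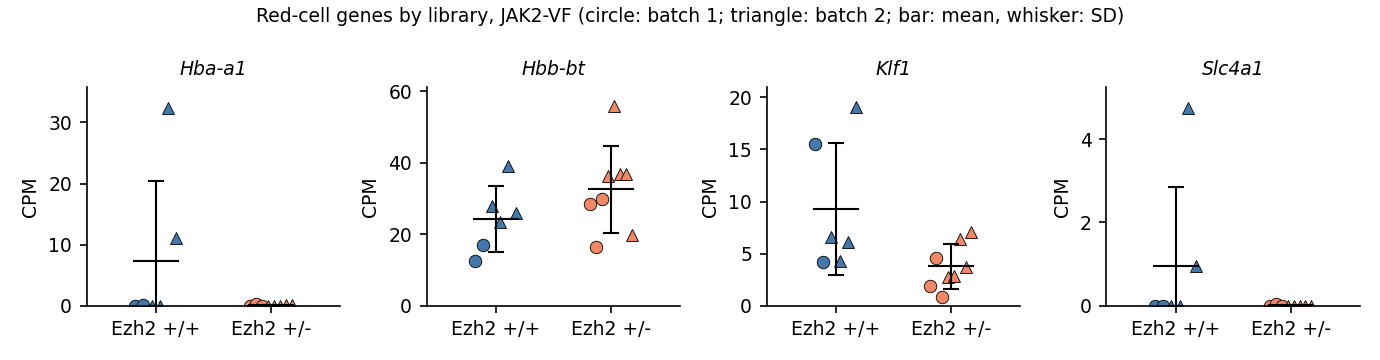
Red-cell genes in CPM in each intact (Ezh2 +/+) and heterozygous (Ezh2 +/-) JAK2-V617F library, with circles for batch 1, triangles for batch 2, bars at the mean and whiskers of 1 SD, cut at 0. Hba-a1 and Slc4a1 are high in the same 2 intact libraries of batch 2, and Hbb-bt and Klf1 overlap between the groups.

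Genes that PRC2 is known to keep silent were mostly too low to measure. Of 54 developmental regulators matched, 10 passed the filter on low counts, and for 1 of those 10 the 95% interval lay within a 2-fold change. Of 14 fetal and oncofetal genes tested, 10 were positive, with a median of 0.14, and 0 were called. Lin28b, the fetal regulator of let-7 microRNAs, had 2 counts over the 6 intact libraries, 0 over the 8 heterozygous libraries and 1262 over the 6 null libraries, so no fold between the first 2 is given. Igf2, the imprinted growth factor, ran from 0.0857 to 1.30 CPM against 0 to 4.54 CPM (log2 difference 1.27, interval -0.62 to 3.17). Among p53 targets Zmat3, an RNA-binding tumour suppressor, ran from 2.01 to 6.25 CPM against 3.56 to 20.8 CPM (1.31 ± 0.37, SE), while the list of 20 had a median of 0.02. Jun, an immediate-early gene of the AP-1 transcription factor, ran from 914 to 3961 CPM against 682 to 1817 CPM (-0.73 ± 0.30, SE), while the 33 immediate-early genes had a median of 0.09.

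**Figure D4:**
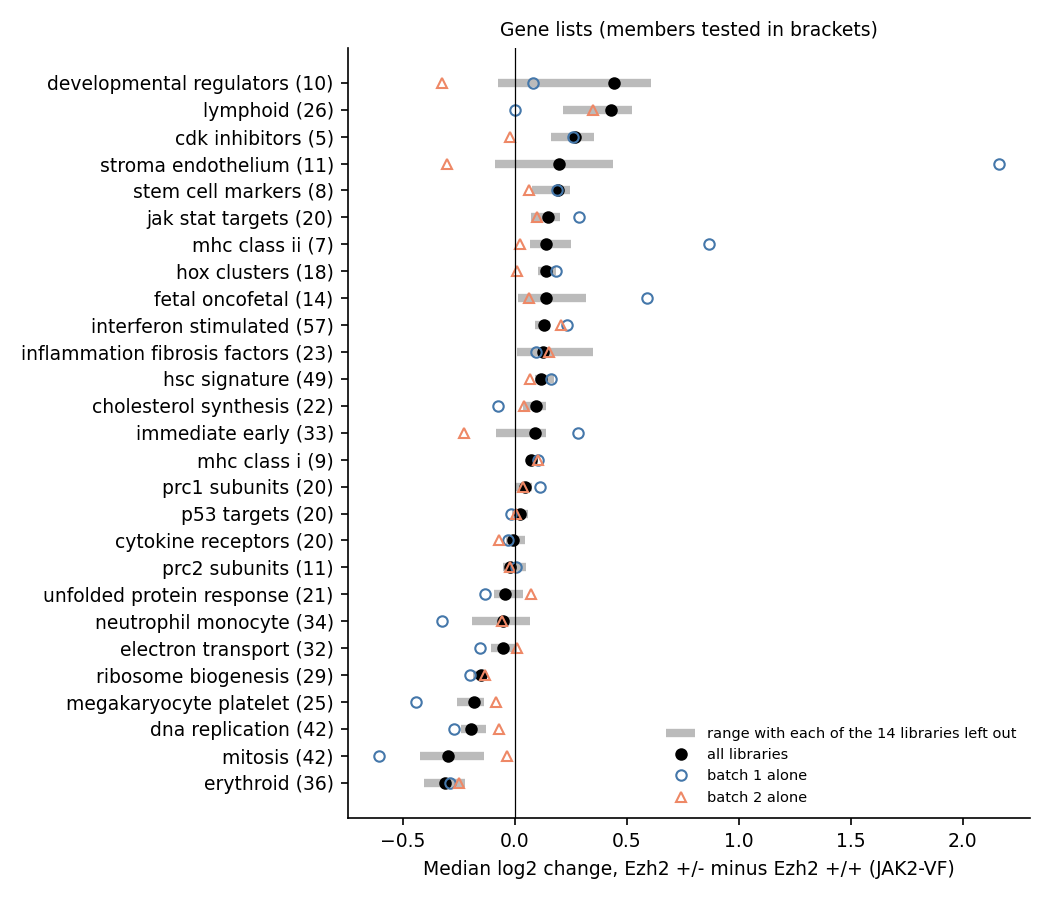
Median log2 change between heterozygous and intact JAK2-V617F libraries for each gene list, with the number of members tested in brackets. Black points use all libraries, grey bars span the medians with each of the 14 libraries left out, and open symbols use 1 batch alone; the mitosis median is -0.61 in batch 1 and -0.04 in batch 2, and the ribosome biogenesis median -0.20 and -0.13.

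Loss of both copies gave a measurable response against the same intact libraries. The comparison of Ezh2-null with intact JAK2-V617F libraries called 71 genes (0.475%), and that of null with heterozygous libraries called 68 (0.455%). Leaving out 1 library at a time gave 38 to 75 calls for the first, the fewest without replicate 1 of batch 1 of the intact group, and 34 to 68 for the second. The first shares its intact libraries, and the second its heterozygous libraries, with the comparison described here, so the values are given side by side and no overlap is drawn from them. They rest on a gene list chosen from earlier results of these data. Of its 25 genes, 20 were positive in the heterozygous group (51.3% of all genes) and 0 called. In the null group 14 were called higher and 3 lower (0.475% of all genes in either direction), which the choice of the list favours.

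For the following genes, called in the null group, the heterozygous values lay nearer to 0. Choosing genes by their null calls favours this. The null to heterozygous p-values reuse the null libraries that gave those calls, so they are no separate support. Gbp7 had a log2 change of 0.15 (interval -0.06 to 0.36) with 1 copy lost and 0.90 (interval 0.66 to 1.13) with both lost, and the null and heterozygous groups differed by 0.74 (edgeR adjusted p = 6.5e-05). Ndn, an imprinted gene that restrains stem cell cycling, had changes of 0.24 and 0.97, and the null to heterozygous difference was 0.74 (edgeR adjusted p = 0.000282). Hbb-bt, a beta-globin gene whose counts are identical to those of Hbb-b2, had changes of 0.54 and 3.47, with a null to heterozygous difference of 2.93 (edgeR adjusted p = 6.5e-05). Each of these differed between null and heterozygous libraries beyond their spread. Bex2 (0.32 and 2.01; difference 1.68, edgeR adjusted p = 0.00162), Serpina3f, a serine protease inhibitor (0.87 and 2.47; difference 1.61, edgeR adjusted p = 0.0212), Zbp1, a sensor of nucleic acid (0.49 and 1.50; difference 1.01, edgeR adjusted p = 0.0417) and Gbp3 (0.39 and 1.20; difference 0.81, edgeR adjusted p = 0.00111) did so too. Of the 3 genes of the list called lower in the null group, Vldlr, a lipoprotein receptor, had changes of -0.56 and -2.04 (difference -1.48, edgeR adjusted p = 0.0455). Cux1, a homeobox transcription factor, had changes of -0.13 and -0.45 (difference -0.32, edgeR adjusted p = 0.0244). The list also holds Igf2, which had no counts in any null library. In the heterozygous group its edgeR change was positive, with an interval that spanned 0.

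For other genes of the list the difference between null and heterozygous libraries missed the threshold. Ifit1, an interferon-induced RNA-binding protein, had changes of 0.64 and 1.64 and a difference of 0.999 (edgeR adjusted p = 0.0703). Ifitm1 had changes of 0.44 and 0.77 and a difference of 0.33 (edgeR adjusted p = 0.547), Socs2 0.36 and 0.85 with 0.50 (edgeR adjusted p = 0.374), and Mycn, a growth-promoting transcription factor, 0.49 and 1.38 with 0.89 (edgeR adjusted p = 0.216). Ramp2, part of the adrenomedullin receptor, had changes of 1.94 and 4.64 and a difference of 2.69 (edgeR adjusted p = 0.117), at no more than 2.64 CPM in any heterozygous library. As a list, interferon-stimulated genes had a median of 0.13 with 1 copy lost and 0.69 with both lost, against 0.01 over all genes in each comparison. With both lost, 17 of 57 were called higher, where 0.475% of all genes were called in either direction. The list holds Gbp7, Gbp3, Ifit1, Zbp1 and Ifitm1, which are also on the list chosen from earlier results.

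**Figure D5:**
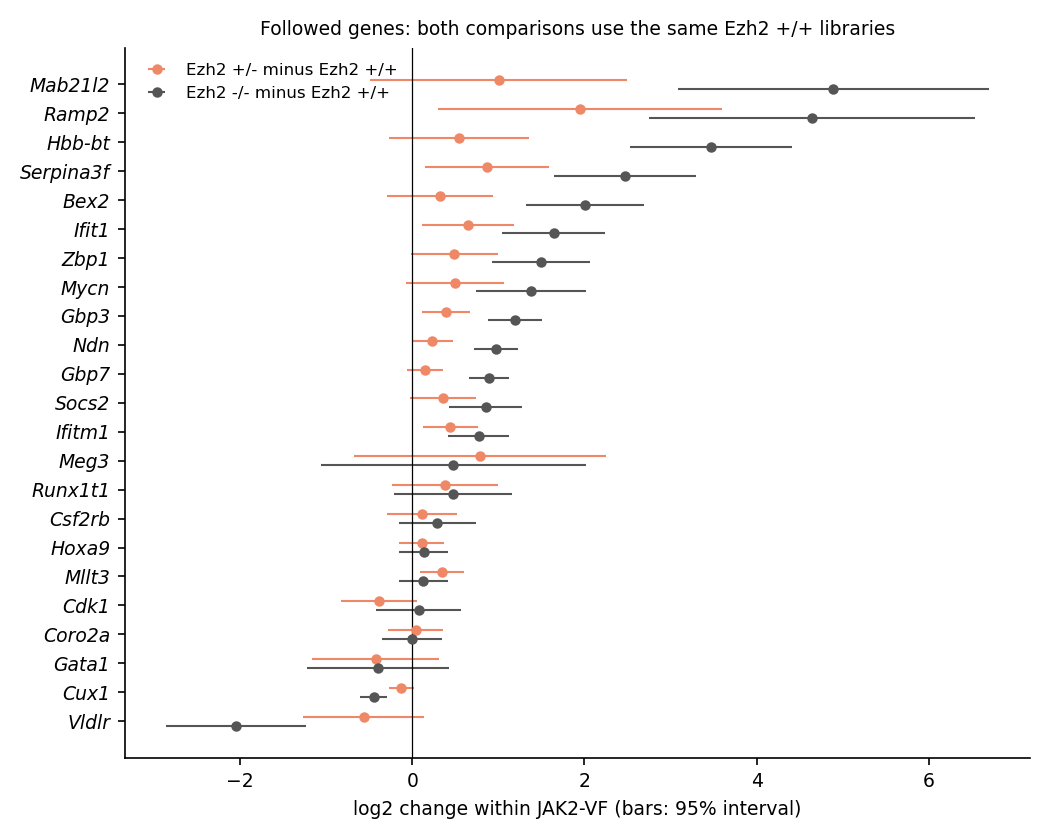
Log2 change of 23 genes followed from earlier results, with 95% intervals, for heterozygous against intact (orange) and null against intact (grey) JAK2-V617F libraries; Lin28b and Igf2, with 0 counts in a group, are left out. The null values of Gbp7, Gbp3, Ndn, Bex2 and Hbb-bt lie outside the heterozygous intervals.

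The effect of losing 1 copy was also set against the same loss without JAK2-V617F. The comparison of heterozygous with intact SclCre libraries without the mutant kinase called 0 of 14945 genes with edgeR (772, or 5.17%, at an unadjusted p under 0.05), and the difference between the effects with and without it called 0 with edgeR (622 genes, 4.16%, at an unadjusted p under 0.05), 0 with limma-voom and 56 with DESeq2. Among the heterozygous libraries without the kinase, replicate 3 of batch 1 had 0 counts in exons 16 and 17, and replicate 1 of batch 1 had 9.50 such counts per 100 Ezh2 counts; without this pair the difference also called 0 genes with edgeR (714 at an unadjusted p under 0.05). The smallest p of the difference belonged to Ntf3 (edgeR adjusted p = 0.331), which had a count in 1 of the 8 heterozygous JAK2-V617F libraries and in none of the intact ones. The interferon list had medians of 0.13 with and 0.21 without the mutant kinase, the mitosis list -0.30 and -0.28, the ribosome biogenesis list -0.15 and -0.03, and the LT-HSC signature 0.12 and 0.10; the differences between these medians were not tested.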

How the data were processed

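RNA of 1000 sorted cells per library was amplified with a low-input kit, per the labels' protocols, and aligned with STAR to mm9, per the submitters' processing notes; of the counter, its strand setting and the annotation the labels say nothing. The deposited values are raw counts per gene in 1 table a library, with 19138 genes and 1 separately counted part of Ezh2, which was left out of library totals and tests. Of these genes 19075 matched a symbol by identifier in the RefSeq table of GRCm38, used for names alone.

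Counts of all 35 libraries were fitted with edgeR 4.0.16 (R 4.3.3): filterByExpr by group, TMM scaling (factors 0.937 to 1.06), terms for group, batch and sex, robust quasi-likelihood tests with 27 residual degrees of freedom, and Benjamini-Hochberg adjustment over 14945 genes, with a threshold of 0.05. CPM values use the TMM-scaled totals. Standard errors were taken from the test's F statistic. Single Ezh2 values were compared by exact permutation tests. DESeq2 1.42.0 and limma-voom (limma 3.58.1) were among the alternatives, and the fit was tested on simulated data. Genes on opposite strands at 1 place, and near-identical copies, cannot be told apart.

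The genes named are Ezh2, its partners and Jak2; the 8 smallest p in each direction among genes averaging 3 or more on the log2(CPM + 1) scale; up to 3 smallest p of each of the 30 lists; the followed list; and the smallest p for the difference of effects. The rule yields more genes than are described, and which of them to describe was settled with their values known. Others are marked as chosen after their values were seen. The comparison and all lists were chosen with earlier results of these data known.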

Additional observations from a re-analysis of the deposited data

Results flagged for a closer look

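In 126 groups of 6 or 8 libraries, 1 library was tested for standing far from the rest of its group, and 11 did; chance alone gives about 1 in 20 such groups. The group values were those of the 62 genes described and of the Ezh2 exon counts.

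In the intact group, replicate 3 of batch 2 stood apart for Hba-a1 and its copy Hba-a2 (32.4 CPM each) and for Slc4a1 (4.75 CPM), replicate 2 of batch 1 for Oxr1 (220 CPM, against a median of 144 CPM), and replicate 2 of batch 2 for Flt3 (91.7 CPM) and Lin28b (0.0649 CPM, the only intact library with a count). In the heterozygous group, replicate 3 of batch 1 stood apart for Ccne2 (53.3 CPM) and Dmwd (25.7 CPM), replicate 5 of batch 2 for Ntf3 (1.16 CPM), and replicate 2 of batch 1 for Slc4a1 (0.0413 CPM). Replicate 1 of batch 1 of the heterozygous group had 6.22 CPM in Ezh2 exons 16 and 17, above the other 7 libraries of its group and within the range of the intact libraries.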

How the results depend on the processing

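For heterozygous against intact, and for the difference of effects with and without JAK2-V617F, each edgeR alternative run and limma-voom also called 0 genes (0 to 0 with single libraries left out). A count of 0 cannot fall, and subsets in which null against intact lost most of its calls say nothing of stability. DESeq2 called 44 and 56 genes. The cause was not tested. The difference of effects could not be fitted in males alone, since no intact library without JAK2-V617F was male. The whole-gene Ezh2 change was -0.79 to -0.54 with single libraries left out, and the exon share difference -1.19 to -0.56 counts per 100. The exon level difference was -2.98 to -1.84 CPM with single libraries left out and -2.38 CPM (exact permutation p = 0.5) in batch 1 alone, where 2 and 3 libraries cannot reach the threshold. The null against intact count of 71 became 193 with DESeq2, 1 in batch 1, 22 in batch 2, 8 in females, 0 in males, 41 without replicates 3 and 4 of batch 2 of the intact group, and 38 to 75 with single libraries left out.

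Replicate numbers are shared between the groups. Deviations of same-numbered libraries had correlations from -0.04 to 0.24 over 6 pairs, 3 of which were best with their own number. Whether the numbers mark pairs was not tested. A fit with the replicate block called 0 genes (733 at an unadjusted p under 0.05), 0 for the difference of effects and 52 for null against intact, and gave Ezh2 a change of -0.64.

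Where both groups had at most 3 counts (Lin28b throughout, and Ntf3, Slc4a1, Hba-a1 and Hba-a2 in some subsets) no change is given. Of 1724 refits of the 60 other genes that have one, 22 changed sign, none of them a called change. In males alone the log2 changes were -0.020 for Bex2, 0.057 for Cdk1, 0.056 for Gata1 and -0.11 for Hbb-bt. In females alone they were 0.12 for Cd34, -0.31 for Suz12 and 0.56 for Vldlr. In batch 1 alone they were -0.076 for Mycn, -0.11 for Suz12 and 0.25 for Vldlr, and in batch 2 alone -0.022 for Suz12. With limma-voom Igf2 was at -0.10 and Suz12 at -0.050. Without the pair of intact libraries high in red-cell genes, an alternative added after seeing the data, Hba-a1 and Hba-a2 were at 1.48 and Suz12 at -0.030. With single libraries left out Suz12 ran from -0.13 to 0.055 and Flt3 from -0.24 to 0.17, and with the replicate block Flt3 was at 0.053. Low counts limit the rest: genes under 1 CPM had 95% intervals reaching a median of 3.17 either side on the log2 scale.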

Other observations

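The 20 PRC1 subunits had a median log2 change of 0.04 with 11 positive, the 32 electron transport genes -0.05 with 8 positive, the 22 cholesterol synthesis genes 0.10 with 15 positive, and the 21 unfolded protein response genes -0.04 with 10 positive; in the last 3 lists every 95% interval lay within a 2-fold change. The 34 neutrophil and monocyte genes had a median of -0.05, and 4 of them had an interval within a 2-fold change. The 26 lymphoid genes tested had a median of 0.43, which was 0.35 in batch 2 and 0.00 in batch 1; it was 0.36 in females, 0.25 in males and 0.58 without the pair of intact libraries high in red-cell genes. Of these genes 17 were positive, and 5 were higher and 1 lower at an unadjusted p under 0.05 (2.13% and 1.74% of all genes), or 2 higher and 1 lower without the pair. Some had 0 counts in a group, such as Ly6d in the intact libraries, where a fitted change is no bound. Of the 26 genes 6 had an interval within a 2-fold change. No gene of these lists was called by edgeR.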
